A study of Mus musculus with 2 samples.

Results

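Arg1, Nos2, Acod1, Slc7a2, Ass1 and Odc1 are 6 of the 32285 genes in the deposited tables. These genes carry arginine into cells, split it, rebuild it, start polyamine synthesis from ornithine, or make the antimicrobial acid itaconate. They were taken by gene symbol, and each symbol had a single row. The values come from temporomandibular joint (TMJ) tissue of female wild-type C57BL/6 mice (C57BL/6J in the study's methods). 1 library came from joints injected with phosphate-buffered saline (PBS) and 1 from joints injected with complete Freund's adjuvant (CFA), an oil emulsion with killed mycobacteria that sets off lasting local inflammation. Both groups were otherwise alike: 8 weeks old at injection by the study's methods (labels: 8 to 10 weeks), injected on both sides with 10 µL (CFA at 5 mg/mL), killed 3 weeks later and pooled from 3 mice into 1 library. CD45+ cells had been depleted with magnetic beads, so the immune cells described below are those left after depletion, and their numbers do not measure how many were in the joint.

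Arginine enters macrophages largely through the cationic transporter encoded by Slc7a2. Inside, inducible nitric oxide synthase (Nos2) turns it into nitric oxide and citrulline, whereas arginase 1 (Arg1) turns it into urea and ornithine. Ornithine decarboxylase (Odc1) starts polyamine synthesis from ornithine, and argininosuccinate synthase (Ass1) begins the return of citrulline to arginine. Aconitate decarboxylase (Acod1) makes itaconate from a citrate-cycle intermediate in activated macrophages and neutrophils. Nos2 and Arg1 compete for the same substrate and are the textbook marks of inflammatory and of alternatively activated mouse macrophages.

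On mouse build GRCm38, Arg1 lies on the minus strand at chr10:24915221-24927484. The others lie on the plus strand: Nos2 at chr11:78920787-78960254, Acod1 at chr14:103046977-103056573, Slc7a2 at chr8:40862396-40922308, Ass1 at chr2:31470207-31520672 and Odc1 at chr12:17544794-17551505. Slc7a2 overlaps Gm26584, a long noncoding RNA gene on the opposite strand, and Odc1 holds the small nucleolar RNA gene Gm22748. RefSeq promoters (GRCm38.p6) were at hand for 3 of the 6 genes and are shown because Acod1 and Ass1 were high in CFA macrophage-like cells and Odc1 was not. Each is the 250 bases before the RefSeq start on the plus strand (Acod1 chr14:103046762-103047011, Ass1 chr2:31470020-31470269, Odc1 chr12:17544623-17544872), with motif matches in capitals. The gene positions above are from GENCODE, and those gene starts lie inside these windows. The last bases of each window thus fall within the gene as given above.
Acod1: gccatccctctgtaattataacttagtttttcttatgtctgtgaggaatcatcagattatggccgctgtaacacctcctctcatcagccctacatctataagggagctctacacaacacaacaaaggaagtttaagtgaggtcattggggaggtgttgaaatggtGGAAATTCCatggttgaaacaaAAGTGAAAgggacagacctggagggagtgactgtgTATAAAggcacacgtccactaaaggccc
Ass1: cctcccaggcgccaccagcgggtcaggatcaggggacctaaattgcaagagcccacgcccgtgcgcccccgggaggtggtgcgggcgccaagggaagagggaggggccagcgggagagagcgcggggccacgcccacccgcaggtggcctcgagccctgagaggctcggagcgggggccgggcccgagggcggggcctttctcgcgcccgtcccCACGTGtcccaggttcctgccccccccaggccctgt
Odc1: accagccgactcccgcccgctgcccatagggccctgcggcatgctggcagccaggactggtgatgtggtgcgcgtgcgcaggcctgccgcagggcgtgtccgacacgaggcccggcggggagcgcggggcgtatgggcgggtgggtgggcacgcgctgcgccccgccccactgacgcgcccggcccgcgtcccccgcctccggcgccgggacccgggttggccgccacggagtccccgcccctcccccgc

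Both strands were searched for 4 motifs. The Acod1 window held the kappa B-like GGAANTTCC starting 85 bases before the RefSeq start. It also held AANNGAAA at 63 bases and the TATA box TATAAA at 28 bases. AANNGAAA is only a part of the letters of a composite ETS and IRF element, without the leading GG of its ETS part. The letters just before the match are aa, so the ETS part is not complete there. The Ass1 window held the E-box CACGTG at 36 bases, and the Odc1 window held none of the 4. Of 27025 promoters of the same length, 0.844% held GGAANTTCC, 21.6% AANNGAAA, 13% TATAAA and 6.05% CACGTG. These matches describe the letters of the window only.

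After filtering, 2667 PBS and 4014 CFA cells remained, with medians of 7022 and 6510 UMIs (unique molecular identifiers, 1 per captured transcript). Clusters were named from marker genes and are called "like" the type whose markers led them. Ptprc, which encodes CD45, was found in 98.8% of C1q macrophage-like and 100% of Acp5 macrophage-like CFA cells and in 95.3% of mature neutrophil-like ones. Of the myeloid classes, the PBS library held 40 mature neutrophil-like, 31 immature neutrophil-like, 20 granulocyte-monocyte progenitor-like, 18 monocyte-like, 16 C1q macrophage-like cells and 1 Acp5 macrophage-like cell, against 279, 72, 63, 68, 259 and 261 in CFA. The 1 PBS cell of the Acp5 class bears that name through its cluster only, as 9 of the 10 Acp5 macrophage markers were at 0 in it. The 140 PBS and 470 CFA cells of 4 clusters stayed unnamed. With 1 library per condition there was no replicate and no test: intervals are exact 95% intervals that cover counting error only, and a difference between the libraries cannot be told apart from a difference between pools of animals, dissections or depletions.

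Summed over all kept cells, 5 of the 6 genes stood at least 2-fold higher in the CFA library and Odc1 stood lower. Arg1 went from 33 UMIs in PBS (1.21 CPM, counts scaled to a common total of UMIs per library or class) to 8827 in CFA (199 CPM), 164-fold (interval 117 to 238). Acod1 went from 12.5 to 304 CPM, 24.3-fold (21.8 to 27.2), and Ass1 from 10.4 to 159.7 CPM, 15.4-fold (13.7 to 17.4). In the PBS library 12, 47 and 150 of the 2667 cells held a UMI of these 3 genes. Nos2 went from 8.57 to 90.3 CPM, 10.5-fold (9.24 to 12.1), and Slc7a2 from 29.8 to 291 CPM, 9.76-fold (9.09 to 10.5). Odc1 went from 83.1 to 53.4 CPM, 0.643 of its PBS level (0.607 to 0.681). Of all 18099 genes with at least 20 UMIs in both libraries together, 9.56% were at least 2-fold higher and 10.4% at least 2-fold lower in CFA, and the median gene with at least 10 UMIs in each library stood at 0.861 of its PBS level, so Odc1 was at 0.747 relative to the median. These sums mix the makeup of each library with the level in each class; more cells of a type and more RNA per cell cannot be told apart in them.

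In CFA, most of these UMIs sat in a small part of the cells. The 2 macrophage-like classes held 96.4% of all Arg1 UMIs, 85.2% of Nos2, 87% of Ass1, 80.9% of Slc7a2 and 48.2% of Acod1, but 27.3% of Odc1. Mature neutrophil-like cells held a further 38.9% of Acod1. In PBS, 83.7% of Nos2 UMIs came from endothelial-like cells and 47.2% of Slc7a2 UMIs from Schwann-like cells.

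**Figure D1:**
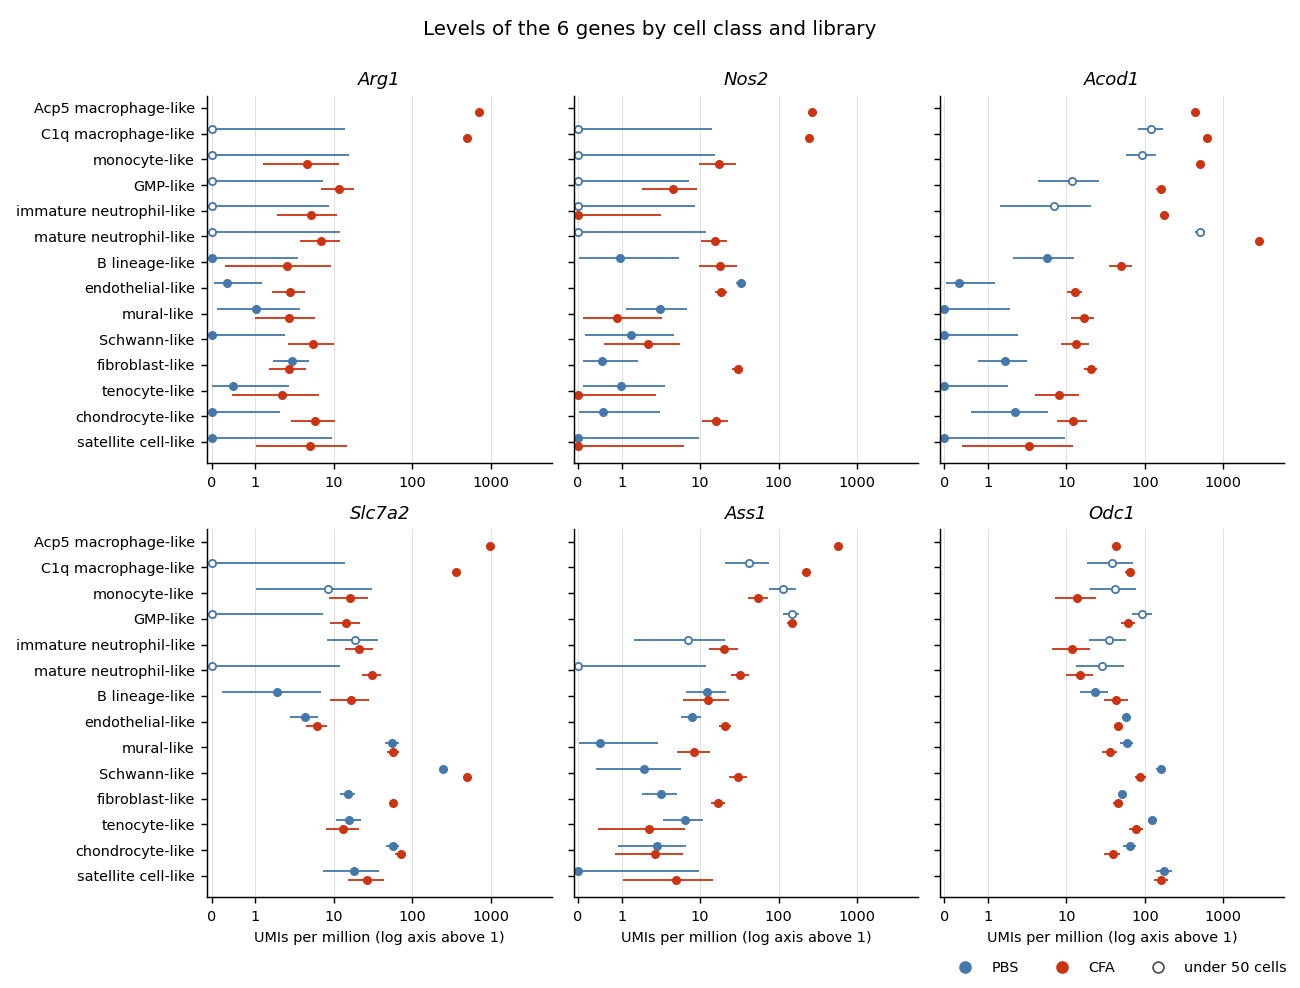
CPM of each gene (x axis, logarithmic above 1) by cell class (y axis) in the PBS (blue) and CFA (red) libraries, with exact 95% Poisson intervals; open circles mark fewer than 50 cells, points from under 15 cells are left out, and the erythroid-like, osteoblast- or osteocyte-like, lining fibroblast-like, lymphatic endothelial-like and unnamed cells are not drawn. Arg1 lies at 709.5 and 502 CPM in the 2 CFA macrophage-like classes and at 11.5 CPM or less in the other classes drawn, whereas Odc1 lies between 11.9 and 176 CPM in all classes drawn.

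Arg1 was found mainly in the macrophage-like cells of the CFA library. In CFA, Arg1 stood at 709.5 CPM (692 to 727) in Acp5 macrophage-like cells, a class led by the matrix enzyme Mmp12 in which 95.4% of cells held the phosphatase gene Acp5, and 170 of 261 cells (65.1%, 59 to 70.9) held a UMI. In C1q macrophage-like cells, which carry complement C1q and antigen-presenting genes, it stood at 502 CPM (480.3 to 524) and 88 of 259 cells (34%, 28.2 to 40.1) were positive. Levels within these classes were very uneven: positive cells held 1 to 225 UMIs with a median of 19 in the first class and 1 to 295 with a median of 8 in the second, and the 27 and 26 cells with most UMIs held 54.6% and 80.6% of all.

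In the other named classes Arg1 was low, at 11.5 CPM or less in CFA; an unnamed cluster that held it is described further on. Monocyte-like cells had 4.59 CPM (3 of 68 cells), mature neutrophil-like cells 6.95 CPM (8 of 279) and progenitor-like cells 11.5 CPM, of which 17 of 18 UMIs came from 1 cell. Endothelial-like cells, which should lack the gene, had a UMI in 1.82% of 1046 cells at a median depth of 4420 UMIs, no cell above 1 UMI; the macrophage-like classes were deeper, at 31885 and 13639 UMIs. After every cell was thinned to 1000 UMIs (129 CFA and 55 PBS cells were shallower and left out), the shares were 33.7% and 15.8% in the macrophage-like classes against 0.383% in the endothelial-like one. The macrophage-like shares thus lay far above the endothelial-like share at equal depth. In PBS none of the 16 C1q macrophage-like cells held Arg1, which allows a level of up to 11.4 CPM, and of the 33 UMIs of the library 13 came from 1 fibroblast-like cell and 7 from the only Acp5 macrophage-like cell.

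Nos2 was expressed by the same macrophage-like classes. Its CFA level was 264 CPM (254 to 275) in Acp5 macrophage-like cells, with 130 of 261 cells positive (49.8%, 43.6 to 56), and 247 CPM (232 to 263) in C1q macrophage-like cells, with 79 of 259 positive (30.5%, 25 to 36.5). The intervals of the 2 levels overlap. Monocyte-like cells had 17.2 CPM from 3 of 68 cells and mature neutrophil-like cells 15.5 CPM from 17 of 279, and immature neutrophil-like cells had no UMI, which allows up to 2.54 CPM. No PBS cell of the mature neutrophil-like (40 cells), immature neutrophil-like (31), monocyte-like (18) or C1q macrophage-like (16) class held Nos2.

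The gene for inducible nitric oxide synthase and the gene for arginase 1 were often found in the same cell. Of 261 Acp5 macrophage-like cells, 94 held both transcripts, 76 held Arg1 only, 36 held Nos2 only and 55 held neither. Nos2 was found in 55.3% of cells with Arg1 (47.5 to 62.9) and in 39.6% of cells without it (29.5 to 50.4); these intervals overlap. Of 259 C1q macrophage-like cells, 47 held both, 41 Arg1 only, 32 Nos2 only and 139 neither. Here Nos2 was found in 53.4% of cells with Arg1 (42.5 to 64.1) and in 18.7% of cells without (13.2 to 25.4), intervals that do not overlap. In neither class were Arg1 and Nos2 kept to separate cells.

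**Figure D2:**
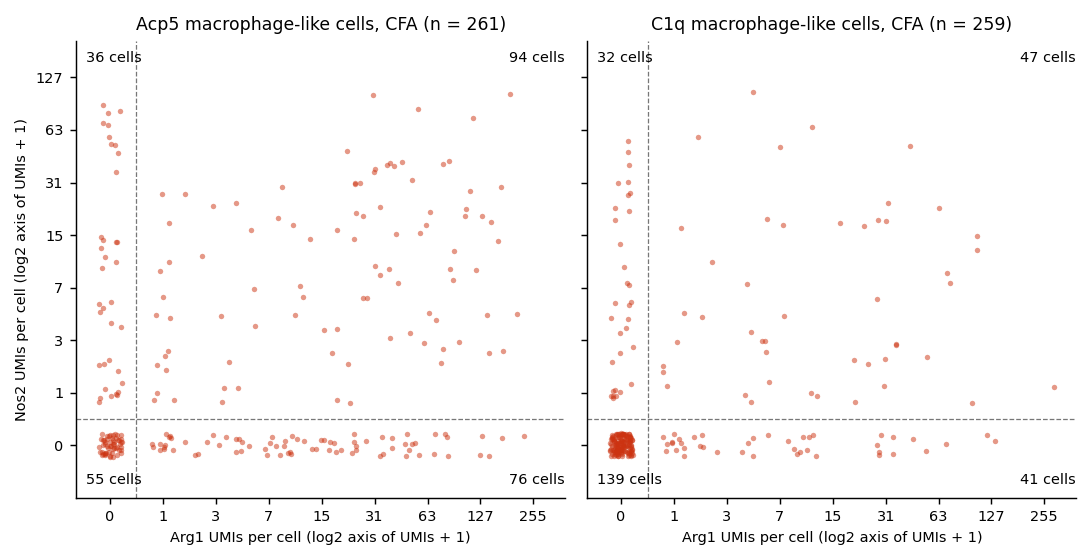
Each point is 1 CFA cell, placed by its UMIs of Arg1 (x axis) and Nos2 (y axis), on log2 axes of UMIs + 1 with a small random shift; dashed lines part cells with a UMI from those without, and the corners count the cells. Cells with both fill the upper right of either panel, 94 of 261 in Acp5 macrophage-like and 47 of 259 in C1q macrophage-like cells.

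Depth differed between these groups, in opposite directions in the 2 classes. Median UMIs per cell were 15908 with both transcripts and 12246 with neither in C1q macrophage-like cells, but 30082 and 36338 in Acp5 macrophage-like cells. Thinned to 5000 UMIs, Nos2 was found in 43.8% of Acp5 macrophage-like cells with Arg1 and 26% without (35.2 to 52.8 and 18.7 to 34.3), and in 38.5% and 17.9% of C1q macrophage-like cells (26.7 to 51.4 and 12.7 to 24.3; 249 cells), and neither pair of intervals overlaps. At 1000 UMIs both transcripts were found together in 22 and 7 cells, and the shares of Nos2 with and without Arg1 had overlapping intervals in both classes (25% and 14.5%; 17.1% and 11.5%). Requiring at least 2 UMIs of each left 75 cells with both in the Acp5 class, with Nos2 in 52.1% and 33.3%, and 32 in the C1q class, with 45.1% and 15.4%. Across cells, log2(CPM + 10) of the 2 genes had a Pearson r of 0.26 and a Spearman rho of 0.25 in Acp5 macrophage-like cells (n = 261), and 0.32 and 0.35 in C1q macrophage-like cells (n = 259); cells of a class share 1 library and differ in depth, so this is a weak relation in sparse counts.

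A droplet that caught more than 1 cell can also show both transcripts. Among cells with both, 4 of 94 and 1 of 47 were in the 5% of the library with the highest doublet score, against 3 of 167 and 6 of 212 of the other cells of each class. The only PBS cell of the Acp5 macrophage-like cluster held both transcripts as well. Its name comes from the cluster alone: 9 of the 10 Acp5 macrophage markers, Acp5 and Mmp12 among them, were at 0 in it. Its C1qa level was 1314 CPM. No other PBS cell of the 6 myeloid classes held Arg1 or Nos2. An unnamed cluster led by Gpnmb, with Mitf among its leading genes (4 PBS and 89 CFA cells), held Arg1 at 401 CPM and Nos2 at 379.7 CPM in CFA. Slc7a2 stood at 1365 CPM there, and 25 of its CFA cells were positive for Arg1, 14 for Nos2 and 8 for both. In mature neutrophil-like cells 2 of 279 held both, and in monocyte-like cells 0 of 68.

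In the C1q class the level of the transporter differed more between cells with and without Nos2 than between cells with and without Arg1. Slc7a2 stood at 59.3 CPM (48.9 to 71.3) in cells with neither transcript and 97.2 CPM (76.2 to 122) in cells with Arg1 only. It stood at 657 CPM (587 to 732) in cells with Nos2 only and 1023 CPM (959 to 1089) in cells with both. The summed level of Slc7a2 was thus many-fold higher in the cells with Nos2. A UMI of it was found in 68.8% and 72.3% of those cells against 19.4% and 46.3% of the others. Its UMIs were uneven: 26 of the 259 C1q macrophage-like cells held 84.2% of them, and 1 cell held 233 of 1476. The intervals of the sums do not cover this spread between cells. Thinned to 1000 UMIs, it was 10.5-fold higher (5.71 to 20.9) in cells with Nos2 than in cells without. In Acp5 macrophage-like cells all 4 groups were high, from 767 CPM with neither to 1215 CPM with Nos2 only, and the thinned ratio was 1.53 (1.17 to 1.99). Cells with Arg1 against cells without differed less, 2.49-fold (1.53 to 4.08) in the C1q class and 0.949 (0.726 to 1.25) in the Acp5 class.

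Markers of the macrophage-like classes differed between the same groups. In the C1q class, the 10 C1q macrophage markers summed to 18440 CPM in cells with neither transcript and 21208 CPM with Arg1 only, but to 9480 CPM with Nos2 only and 10597 CPM with both. Without Apoe, the highest of them, the sums were 8930, 7616, 4639 and 3668 CPM in that order. The 10 Acp5 macrophage markers summed to 791, 1399, 614 and 1196 CPM in the same order, neither, Arg1 only, Nos2 only and both. In the Acp5 class these markers summed to 14148, 12030, 6280 and 7448 CPM in that order. Without Spp1, the highest of them there, the sums were 6991, 4972, 3406 and 4353 CPM. Among the Acp5 macrophage markers Oscar was at 0 in all 4 groups of the C1q class, and Ocstamp in all but the cells with neither. The 10 mature neutrophil markers summed to 5968, 4025, 5237 and 4806 CPM in the C1q class. So in both classes the cells with Nos2 had a lower sum of their own class's markers than the cells without it. The summed Acp5 markers of the C1q cells with Nos2 stayed far under the level of the Acp5 class. In the Acp5 class the neutrophil markers summed to 1234 CPM with neither and 3118 to 3627 CPM in the other groups. The part of these differences in the Slc7a2 levels was not tested.

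Acod1 and Ass1 differed less. In C1q macrophage-like cells Acod1 was 553 CPM with neither, 344 CPM with Arg1 only, 884 CPM with Nos2 only and 800 CPM with both, so it was lowest in the cells with Arg1 only. Ass1 was 151 CPM with neither, 234 with Arg1 only, 274 with Nos2 only and 336 with both. In Acp5 macrophage-like cells the 4 groups lay between 364 and 550.1 CPM for Acod1 and between 531 and 629.8 CPM for Ass1. Odc1, the next enzyme after arginase towards polyamines, was at 30.7 to 56.9 CPM in the 4 Acp5 groups and 51.4 to 82.6 CPM in the 4 C1q groups, lowest in the cells with neither in both classes; those intervals (23.6 to 39.2 and 41.7 to 62.7) do not overlap the intervals of the cells with Arg1 only (40.7 to 58 and 63.3 to 106).

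**Figure D3:**
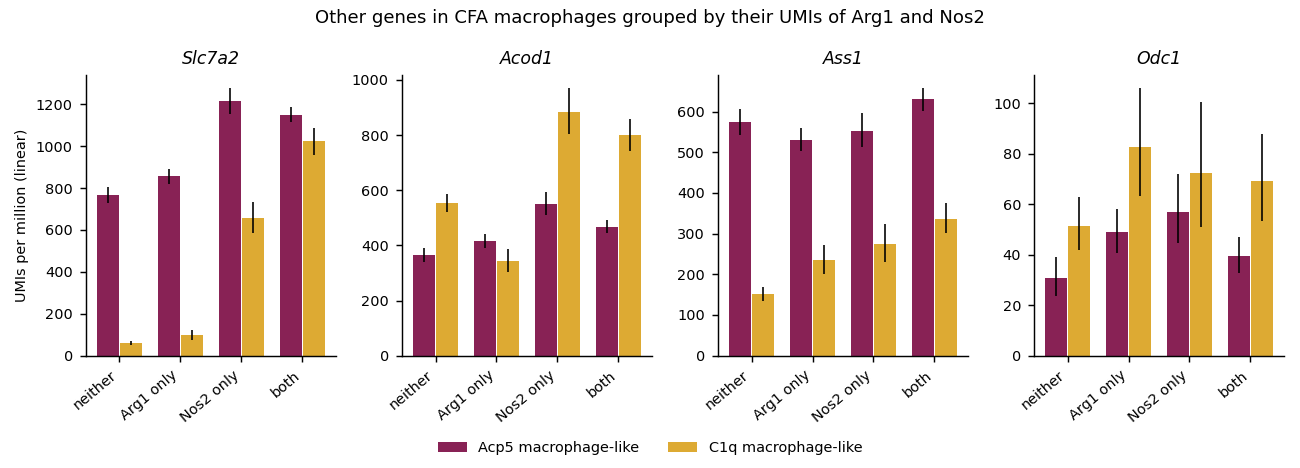
Bars give CPM (y axis, linear from 0) of Slc7a2, Acod1, Ass1 and Odc1 in CFA macrophage-like cells with neither, only one, or both of Arg1 and Nos2, with exact 95% Poisson intervals. In C1q macrophage-like cells (yellow) Slc7a2 goes from 59.3 CPM with neither to 1023 CPM with both, whereas in Acp5 macrophage-like cells (purple) all 4 bars stand at 767 CPM or more.

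Cells with Arg1 were compared with the other cells of their class after thinning to 1000 UMIs. In Acp5 macrophage-like cells, 3.84% of 2134 genes were at least 2-fold higher with Arg1 and 3.7% at least 2-fold lower. With counts under 3 set to 3, the 5 highest ratios among genes with at least 50 UMIs in the cells with Arg1 belonged to Nrg1 (a growth factor, 35 against 3 thinned UMIs), Glis3, F13a1 (coagulation factor XIII, 52 against 6), Smad4 and Lat2, at 4.1- to 6.25-fold, with 3 to 6 UMIs in the cells without Arg1. Nrg1 and F13a1 are also among the leading genes of the monocyte-like cluster. Among the other genes of the metabolic and activation lists, 23 had at least 20 thinned UMIs, 2 were at least 2-fold higher (Tnf 2.01-fold, 0.899 to 5.07; Bnip3 5.35-fold, 1.3 to 47.2, from 20 against 2 UMIs) and 0 were 2-fold lower. In C1q macrophage-like cells, 3.51% of 2451 genes were 2-fold higher and 8.28% 2-fold lower with Arg1. There the mannose receptor Mrc1, a usual mark of alternative activation like Arg1 itself and also a leading gene of the C1q class, had 6 thinned UMIs in the cells with Arg1, a ratio of 0.108 (0.0388 to 0.243). Il4ra (0.486, 0.162 to 1.22) and Cxcl10 (0.149, 0.0172 to 0.597, from 2 against 26 UMIs) were the others of 27 list genes past 2-fold, both lower. The 5 highest ratios there belonged to Hilpda, Mmp19, Lrrk2, Spp1 (4.29-fold, 2.6 to 7.27), a marker of the Acp5 class, and Cacna1d. Of the members, Slc7a2 and Nos2 (2.24-fold, 1.28 to 3.95) were at least 2-fold higher, and Acod1 (1.17, 0.807 to 1.67) and Ass1 (1.38, 0.761 to 2.46) were not.

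Cells with Nos2 were compared with the other cells of their class in the same way. In C1q macrophage-like cells 4.81% of 2451 genes were at least 2-fold higher with Nos2 and 9.18% at least 2-fold lower. The highest ratios belonged to Inhba, a subunit of activin (10.7-fold, 6.45 to 18.6), and Slc7a2; Inhba and AA467197 (7.59-fold, 4.61 to 13) are leading genes of the Acp5 class. Of the 4 members measured, Slc7a2, Arg1 (5.14-fold, 3.41 to 7.89) and Acod1 (2.09-fold, 1.47 to 2.96) were at least 2-fold higher and 0 lower. Of 27 other list genes 5 were higher (Bnip3, Cxcl9, Gch1, Ptgs2 and Vegfa) and 3 lower (Il4ra, Mrc1 and Tgfb1). Cxcl9, a chemokine gene, was 4.33-fold higher (2.93 to 6.49), and Mrc1 stood at 0.0407 (0.00487 to 0.15). In Acp5 macrophage-like cells 4.03% of 2134 genes were at least 2-fold higher and 3.19% at least 2-fold lower. There 1 of 4 members (Arg1 2.31-fold, 1.73 to 3.11) and 4 of 23 other list genes (Bnip3, Cxcl9, Ptgs2 and Smox) were higher and 0 lower; Cxcl9 was 10.6-fold higher (2.59 to 93.1, from 21 against 2 UMIs), and the neutrophil gene Ngp was 5.04-fold higher (2.21 to 13.4).

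Acod1 had its highest level in mature neutrophil-like cells. It stood there at 505 CPM (429.6 to 591) in PBS, from 19 of 40 cells, and at 2814 CPM (2738 to 2891) in CFA, from 230 of 279 cells. Thinned to 1000 UMIs, 20.5% of 39 PBS and 70.1% of 274 CFA cells held it, against 0% and 1.82% of endothelial-like cells. All 3 clusters of this class stood higher in CFA: 66.3 against 744 CPM in the cluster led by Ifitm6 and the granule gene Ltf, 965 against 3417 CPM in the one led by Retnlg, with the chemokine receptor Cxcr2 among its leading genes, and 4689 against 8522 CPM in the one led by Il1f9 and by Acod1 itself. The PBS values rest on 23, 12 and 5 cells and the CFA values on 93, 58 and 128. The levels of the whole class thus mix its makeup of clusters with the level in each cluster. Of the other CFA classes, C1q macrophage-like cells followed at 611 CPM (204 of 259 cells), monocyte-like cells at 504 CPM (32 of 68) and Acp5 macrophage-like cells at 440.2 CPM (253 of 261). Immature neutrophil-like and progenitor-like cells had 177 and 159 CPM.

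Ass1 was near uniform among Acp5 macrophage-like cells: 257 of 261 held it, at 578 CPM (563 to 594), and the 27 cells with most carried 29.6% of its UMIs. C1q macrophage-like cells had 224 CPM (178 of 259 cells), and progenitor-like cells 147 CPM (128 to 167) in CFA and 146 CPM (115 to 184) in PBS. In that class the intervals of the 2 libraries overlap. Monocyte-like cells had 114 CPM in PBS (74.9 to 165, 18 cells) and 55 CPM in CFA (40.6 to 73, 68 cells).

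Among the named classes of the CFA library Slc7a2 was highest in Acp5 macrophage-like cells, 986 CPM (966 to 1007) in 249 of 261 cells; the unnamed Gpnmb-led cluster had 1365 CPM. Schwann cells, which wrap nerve fibres, came next: Schwann-like cells had 248 CPM (224 to 274) in PBS, from 163 of 308 cells, and 498 CPM (466 to 531) in CFA, from 261 of 377 cells. The CFA level was 2.01-fold higher (1.78 to 2.27), or 1.93-fold relative to the median gene of the class. The 2 large clusters, with Ncmap (cluster 3) and Kcna1 (cluster 14) among their leading genes, stood at 296 and 709 CPM and at 275 and 548 CPM in PBS and CFA, with intervals that do not overlap. Cluster 26, with Cadm2, Cdh19 and Scn7a among its leading genes, stood at 12.2 and 47.4 CPM, and the few cells of cluster 33 (3 PBS and 16 CFA) at 576 and 429 CPM. Thinned to 1000 UMIs, a UMI was left in 16.7% of the 300 Schwann-like cells from PBS and 38.2% of the 364 from CFA, against 0.135% and 0.862% of endothelial-like cells. Only 98 PBS and 95 CFA Schwann-like cells were deep enough for thinning to 5000 UMIs. Of these, 48% (37.8 to 58.3) and 52.6% (42.1 to 63) held Slc7a2, with overlapping intervals. Lyz2 (lysozyme, abundant in macrophages and neutrophils) also stood higher in CFA Schwann-like cells, at 12.3 CPM in PBS (3.57% of cells) and 336 CPM in CFA (69%). Slc7a2 stood at 20105 UMIs per 1000 UMIs of Lyz2 there in PBS and 1482 in CFA, against 31.3 in CFA Acp5 macrophage-like cells. The summed level of 10 C1q macrophage markers was 1545 CPM in PBS and 8498 CPM in CFA Schwann-like cells, of which Apoe, the apolipoprotein E gene, made up 1537 and 8450 CPM. The other 9 summed to 7.8 and 48.1 CPM, with Cd163 at 0 in both libraries. The 10 Acp5 macrophage markers summed to 283 and 471 CPM, and the 10 mature neutrophil markers to 166 and 386 CPM. The part of other cells' RNA in the Slc7a2 level was not tested.

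Of the 5 other members in Schwann-like cells, Odc1 went from 159.9 to 87.5 CPM, 0.548 of its PBS level (0.446 to 0.671). Ass1 stood at 1.95 and 30.6 CPM, but 44 of its 56 CFA UMIs came from 1 cell. Acod1 had no UMI in 308 PBS cells, which allows up to 1.95 CPM. In CFA it had 24 UMIs (13.1 CPM) in 13 of 377 cells, 12 of them in 1 cell. Arg1 and Nos2 had at most 10 UMIs each in either library. Slc7a2, Ass1 and Acod1 were thus at least 2-fold higher in a class where 7.79% of 10767 genes were, and 3.1% were at least 2-fold lower. Of 33 other genes of the 12 metabolic lists, 2 were 2-fold higher and 0 were 2-fold lower: Nos1, the neuronal nitric oxide synthase, at 13 against 60.7 CPM (4.67-fold, 2.89 to 7.95), and Clybl, a citramalyl-CoA lyase of itaconate breakdown, at 8.45 against 33.4 CPM (3.95-fold, 2.15 to 7.84).

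**Figure D4:**
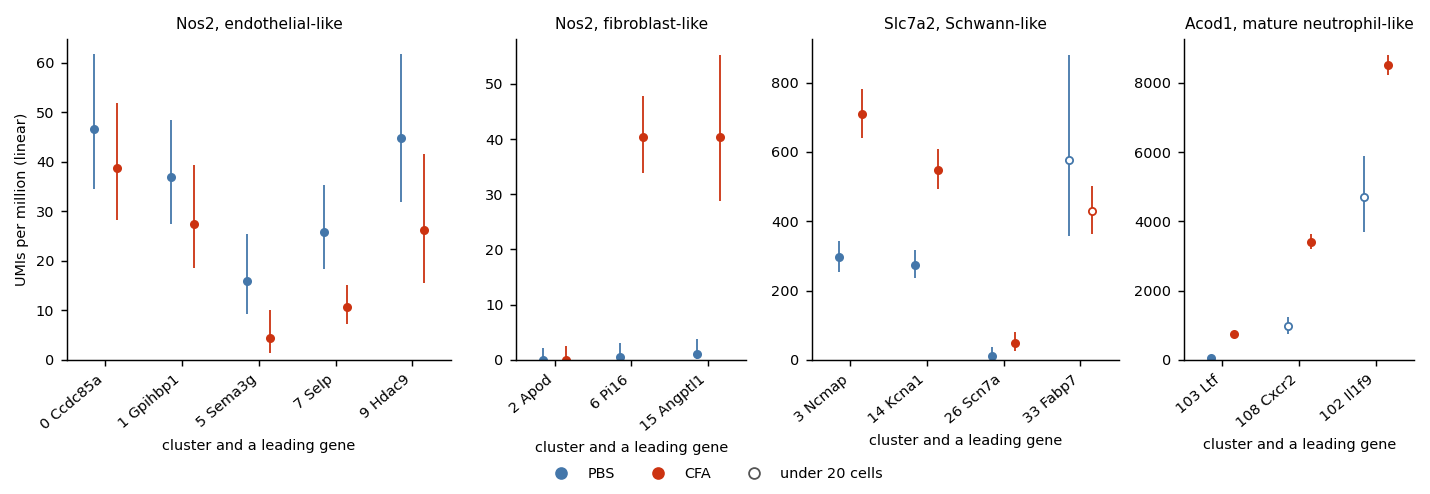
CPM (y axes, linear from 0, each with its own range) by cluster, named by its number and a leading gene, in PBS (blue) and CFA (red), with exact 95% Poisson intervals; open circles mark fewer than 20 cells. Nos2 is lower in CFA in all 5 endothelial-like clusters. It is higher in CFA in fibroblast-like cluster 6, and in cluster 15, where 36 of 39 UMIs come from 1 cell. Slc7a2 in Schwann-like clusters 3 and 14 and Acod1 in mature neutrophil-like clusters are higher in CFA as well.

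Endothelial-like cells, the main holders of Nos2 in PBS, had less of it in CFA. Nos2 stood there at 33.2 CPM (28.7 to 38.1) in PBS, from 149 of 754 cells, and at 18.5 CPM (15.4 to 22) in CFA, from 105 of 1046 cells. The CFA level was 0.558 of the PBS level (0.443 to 0.701), whereas in C1q macrophage-like cells Nos2 stood at 0 UMIs in 16 PBS cells and 247 CPM in CFA; the only PBS Acp5 macrophage-like cell held 11 UMIs. All 5 clusters had the same direction, from 46.7 to 38.7 CPM in cluster 0, 36.9 to 27.5 in cluster 1, 15.9 to 4.35 in cluster 5 (Sema3g, Gja5), 25.9 to 10.6 in cluster 7 (Plvap, Selp) and 44.9 to 26.3 in cluster 9. The intervals overlap in 4 clusters and not in cluster 7. Cells were deeper in PBS (median 5408 against 4420 UMIs), and at 1000 UMIs 4.31% of PBS and 3.07% of CFA cells held Nos2, against 0% and 0.549% of Schwann-like cells. No endothelial-like cell held more than 5 UMIs, against up to 101 in a macrophage-like cell. With clusters taken from merged, unintegrated data the log2 ratio was -1.79 in place of -0.84, and with each cell classed on its own markers -0.36.

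In the same class, Ass1 stood at 7.82 CPM in PBS and 20.8 CPM in CFA (2.66-fold, 1.9 to 3.79), Odc1 at 57.1 and 45.1 CPM (0.789, 0.674 to 0.924) and Slc7a2 at 4.25 and 6.07 CPM (1.43, 0.85 to 2.45). Acod1 went from 2 to 88 UMIs (0.34 to 12.7 CPM) and Arg1 from 2 to 19. Lyz2 moved with them, from 4.93 CPM in 3.85% of PBS cells to 242 CPM in 71.7% of CFA endothelial-like cells. Per 1000 UMIs of Lyz2, CFA endothelial-like cells had 11.4 UMIs of Arg1 (6.82 to 17.8), 52.6 of Acod1 (42 to 65.2) and 86.1 of Ass1; Acp5 macrophage-like cells had 22.5, 14 and 18.3, and mature neutrophil-like cells 0.926, 375 and 4.35. The part of free RNA in these differences was not tested. So 3 of 6 members (Arg1 8.08-fold, 1.95 to 71.5; Acod1 37.4-fold, 10.1 to 314; Ass1) were at least 2-fold higher in a class where 5.15% of 12707 genes were; 5.74% were 2-fold lower. Of 35 other metabolic list genes 1 was 2-fold higher (Arg2, 0.34 against 6.22 CPM) and 1 lower (Gamt, 25 against 12.3 CPM).

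In fibroblast-like cells Nos2 stood at 0.555 CPM in PBS, 3 UMIs in 489 cells, and at 30.1 CPM (25.7 to 35) in CFA, 170 UMIs in 37 of 380 cells, 54.2-fold (18.2 to 265). Most of the positive cells, 35, belonged to cluster 6, led by Pi16 and Clec3b, genes of adventitial fibroblasts, where 21.2% of 165 cells held it. Nos2 was not found in cluster 2, led by Apod, in 209 PBS or 154 CFA cells. The positive cells of cluster 6 all held the fibroblast gene Dcn, as did all 130 negative cells. Ptprc was held by 2 of the 35 positive cells, against 7 of 130 negative cells. The Lyz2 level of the positive cells was 101 CPM against 245 CPM in the negative cells, and their median depth 23887 against 15790 UMIs. Of the 131 UMIs of this cluster 74 came from 4 cells, none with Ptprc or Csf1r, and of the 39 UMIs in cluster 15, 36 came from 1 cell that held Ptprc. Chondrocyte-like cells had 1 UMI in PBS and 30 in CFA, 27 of them in 1 cell of 112677 UMIs that held Ptprc and Csf1r.

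Slc7a2, Ass1 and Acod1 were also higher in CFA fibroblast-like cells, and the summed levels of Arg1 and Odc1 were not. Slc7a2 went from 15 to 57.5 CPM (3.84-fold, 3 to 4.95), higher in each of the 3 clusters, with 12.1% of cells positive in PBS against 35% in CFA. Ass1 went from 3.15 to 17 CPM (5.4-fold, 3.2 to 9.65) and Acod1 from 1.67 to 20.4 CPM (12.2-fold, 6.21 to 27.4), of which a single cell held 56 of 115 UMIs. Arg1 had 16 and 15 UMIs (0.896, 0.413 to 1.94) and Odc1 51.1 and 44.9 CPM (0.88, 0.739 to 1.05). The Arg1 sum in PBS rests on 1 cell with 13 of the 16 UMIs. As counted, 2 of 489 PBS cells (0.409%, 0.0496 to 1.47) and 12 of 380 CFA cells (3.16%, 1.64 to 5.45) held Arg1. Thinned to 5000 UMIs, the shares were 0.476% (0.0577 to 1.71) and 0.974% (0.201 to 2.82), with overlapping intervals. So 4 of 6 members were at least 2-fold higher in a class where 8.63% of 13215 genes were, and 5.09% were 2-fold lower. Lyz2 stood at 9.26 CPM in PBS and 195 CPM in CFA fibroblast-like cells, and the part of free RNA was not tested. Of 35 other metabolic list genes 3 were 2-fold higher and 0 lower; Gch1, the first enzyme of tetrahydrobiopterin, a cofactor that nitric oxide synthases need, went from 10.9 to 44.8 CPM (4.1-fold, 3.08 to 5.54).

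Odc1 was the member spread most evenly over the classes. Its CFA levels ran from 11.9 CPM in immature neutrophil-like cells to 201 CPM in erythroid-like cells, with 159.7 CPM in satellite cell-like cells, the stem cells of muscle. The CFA level was lower in tenocyte-like cells (123 against 77.1 CPM; 0.628, 0.495 to 0.792), chondrocyte-like cells (63.9 against 38.9; 0.608, 0.448 to 0.822) and mural-like cells (59 against 35.6; 0.604, 0.449 to 0.811), besides the endothelial-like and Schwann-like ones. Of the chondrocyte-like cells, 28 of the PBS library formed a cluster with 0 CFA cells; in the other cluster Odc1 stood at 66.5 CPM in 58 PBS cells (54.1 to 80.8) and 38.9 CPM in 85 CFA cells (30.5 to 48.8). In satellite cell-like cells (176 and 159.7 CPM; 0.908, 0.658 to 1.26) the interval of the ratio holds 1. B lineage-like cells went the other way, 22.9 against 43.3 CPM (1.89-fold, 1.09 to 3.33). Odc1 passed 2-fold in none of the 8 classes.

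**Figure D5:**
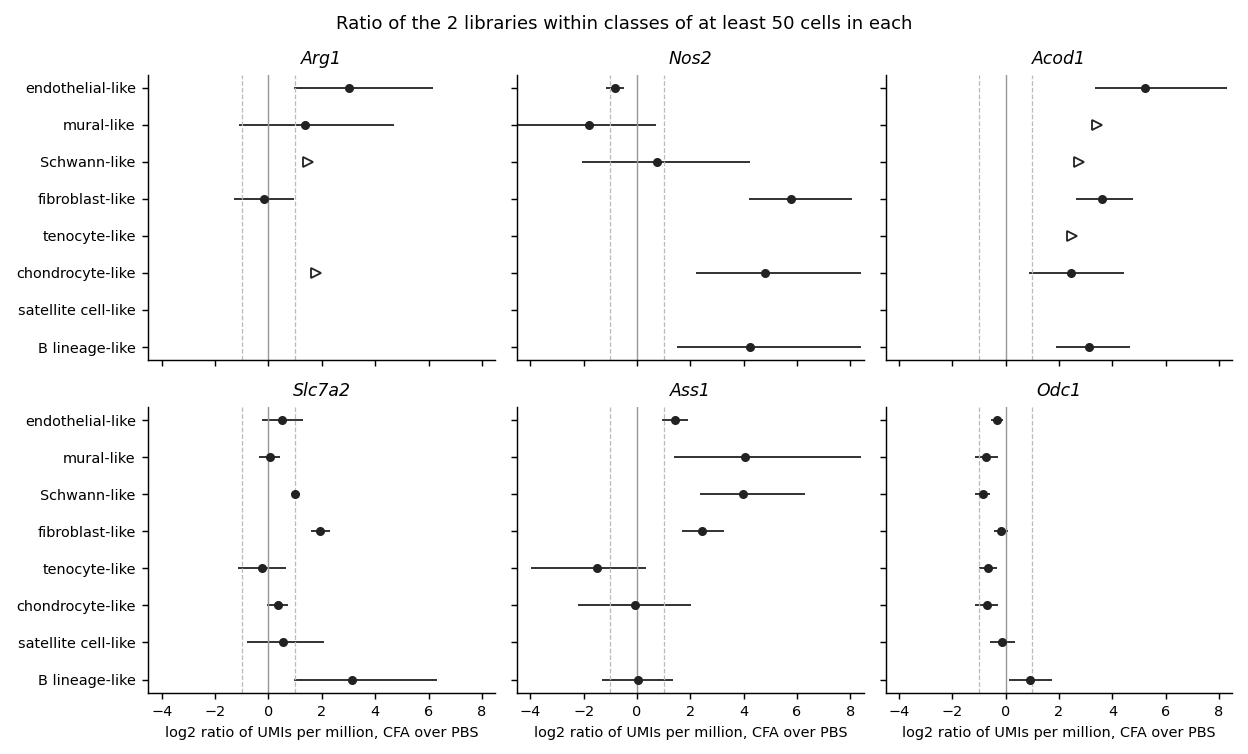
log2 ratio of CPM, CFA over PBS (x axis), within the 8 classes that had at least 50 cells in each library (y axis), with exact 95% intervals that are cut at the frame; open arrows are lower bounds against 3 UMIs, and classes with at most 3 UMIs in both libraries are blank. Nos2 lies left of 0 in endothelial-like and right of it in fibroblast-like cells, and Odc1 lies left of 0 in 7 of the 8 classes.

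The members' order across classes was compared over 23 points, each a class in a library with at least 50 cells; the points share 2 libraries, so these values are descriptions. On log2(CPM + 10), Arg1 was most like Nos2 (Pearson r = 0.86) and Ass1 (0.85), and less like Slc7a2 (0.67) and Acod1 (0.59). Arg1 stood at 709.5 and 502 CPM in the 2 CFA macrophage-like points and at 11.5 CPM or less in the others. The r values of Arg1 therefore rest largely on those 2 points. Odc1 had r between -0.61 and 0.10 with the others. Of 8521 genes that reached 50 CPM in a point, those nearest to Arg1 were Rgs1, F7 and Tmem37 (0.94 to 0.96), and those nearest to Nos2 were Tmem37, Cxcl16 and Slamf8 (0.87 to 0.89). Acod1 was closest to Clec4d, Lilr4b and Clec4e (0.98 to 0.99), Ass1 to Trem2, Lat2 and Cd68 (0.91 to 0.93), Slc7a2 to Aldoc, Npc1 and Cpeb2 (0.78 to 0.83) and Odc1 to Slc7a5, Tanc2 and Znrf3 (0.82 to 0.85).

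Of 38 other genes of the same pathways measured over all cells, 5 were at least 2-fold higher in CFA and 3 at least 2-fold lower, shares near those of all genes (9.56% and 10.4%), with a median log2 ratio of -0.07 against -0.20 for all genes tested. Arg2, the mitochondrial arginase, went from 4.23 to 135 CPM (31.9-fold, 26.5 to 38.6). In CFA it stood at 275 CPM in Acp5 macrophage-like, 392 CPM in C1q macrophage-like and 527 CPM in mature neutrophil-like cells, so that the last had Arg2 but only 6.95 CPM of Arg1. Gch1 (39.3 to 90.6 CPM) and Smox, spermine oxidase (31.4 to 78.3 CPM), were 2.31- and 2.5-fold higher, and Ddah2, of the family that breaks down methylarginines, went from 80.9 to 31.7 CPM (0.392, 0.367 to 0.42). None of the 6 other polyamine synthesis and control genes passed 2-fold. Of the activation lists, 7 of 10 inflammatory genes were at least 2-fold higher and 0 lower, and of 8 alternative ones 3 were higher and 1 lower, beside 9.56% and 10.4% of all genes; Il1b went from 42.8 to 720.5 CPM, and Il4, which drives alternative activation, had 1 UMI in each CFA macrophage-like class.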

How the data were processed

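Per the labels and the study's methods, single-cell suspensions were loaded on 10x Genomics chips and the authors aligned and counted reads with Cell Ranger 7.0.1 on mm10 (GRCm38); the deposited values are UMI counts per gene and barcode. Barcodes with at least 500 genes, at most 10% mitochondrial and at most 1% hemoglobin UMIs were kept: 2667 of 7671 (PBS) and 4014 of 5709 (CFA); 3178 and 339 failed the hemoglobin limit alone. The libraries share 10 barcode sequences, 2 of them among kept cells. Cells were clustered with Seurat 5.3.0 (SCTransform, anchor integration, 200 principal components, resolution 1.5) without the genes of the lists used here, and myeloid clusters were clustered again (30 components, resolution 0.6). A cluster was named from markers found in at least 25% of its cells and at least 2-fold over other cells: at least 3 of them, and no other class with more markers among the 10 genes of highest fold; 34 of 38 were named. The naming rule and the second clustering were chosen after a first naming was seen, and the members and gene lists with earlier results of these data known. Genes named besides members came from these lists, from the 3 highest correlations per member, and from the 5 highest ratios between Acp5 macrophage-like cells with and without Arg1 among genes with at least 50 UMIs in the former; the genes named from the C1q class or from the Nos2 comparison outside the lists, and Apoe, Lyz2 and Ngp, were chosen after their values were seen.

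CPM are summed UMIs over all UMIs of the same cells. Intervals are exact (Poisson, conditional binomial for ratios, Clopper-Pearson for shares), at 95%, and cover counting error only; a count of 0 is given as an upper limit of 3 counts. No test was made, as each condition is 1 library. The ratio step was tested on simulated endothelial-like counts with 200 genes changed 4-fold: 99% passed 2-fold, and 95.6% of 12683 intervals held the true ratio. Scrublet (scanpy 1.11.5) marked 21 and 2 cells on its own threshold, which was not used; the highest-scoring 5% were removed as an alternative. Python 3.11.15 and R 4.3.3 were used. For calls past 2-fold, counts under 3 were set to 3.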

Additional observations from a re-analysis of the deposited data

Results flagged for a closer look

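Nos2 and Odc1 differed between the libraries in opposite directions in different classes, with intervals of each ratio that exclude no change; the differences between classes were not tested, since each condition is 1 library. For Nos2 the log2 ratio of CFA over PBS was -0.84 in endothelial-like cells, 5.76 in fibroblast-like cells and 4.81 in chondrocyte-like cells, where 27 of 30 CFA UMIs came from 1 cell. For Odc1 it was 0.92 in B lineage-like cells, from 24 and 34 UMIs, against -0.34 in endothelial-like, -0.67 in tenocyte-like, -0.72 in chondrocyte-like, -0.87 in Schwann-like and -0.73 in mural-like cells. Among chondrocyte-like cells, 28 from PBS formed a cluster with 0 CFA cells.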

How the results depend on the processing

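Of 178 values under alternative settings, 124 stayed within the counting interval of the reported value and 54 moved out of it. None of the log2 ratios changed sign. The other values are shares of cells, which have no sign to change. No paired analysis was possible because each condition is 1 library, and for the same reason no replicate could be left out. At resolution 0.8 no tenocyte-like class was found, so Odc1 has no value there. Over all cells, the log2 ratios of Arg1, Nos2, Acod1, Slc7a2, Ass1 and Odc1 (7.36, 3.40, 4.60, 3.29, 3.94 and -0.64) became 5.94, 2.17, 4.32, 1.90, 3.30 and -0.53 as a mean over cells. Scaled by the median ratio of genes, those of Nos2, Acod1, Slc7a2, Ass1 and Odc1 were 3.61, 4.82, 3.50, 4.16 and -0.42. Without the hemoglobin limit, Nos2, Slc7a2 and Odc1 had 3.62, 3.53 and -0.81; with every barcode, Nos2 and Slc7a2 had 3.77 and 3.68. Without the top Scrublet scores, Acod1 had 4.77. The share of Acp5 macrophage-like cells with Arg1 (65.1%) was 55.2% at 2 UMIs or more, 54% with cells classed singly, 33.7% and 49.8% thinned to 1000 and 5000 UMIs, and 55.7% with the unnamed Gpnmb-led cluster added, an alternative chosen after seeing the data. Their share with Nos2 (49.8%) was 37.9% classed singly, and 18% and 34.9% thinned. In C1q macrophage-like cells, Arg1 (34%) was 27.4% at 2 UMIs or more, 44.6% classed singly, and 15.8% and 26.1% thinned; Nos2 (30.5%) was 23.6%, and 12.4% and 23.3% thinned. Acod1 in mature neutrophil-like cells (82.4%) was 76% at 2 UMIs or more, 88.3% without integration, and 70.1% and 63.8% thinned. Nos2 among Acp5 macrophage-like cells with Arg1 (55.3%) was 25% and 43.8% thinned; without Arg1 (39.6%), 22.5% classed singly, and 14.5% and 26% thinned. In the C1q class these were 17.1% and 38.5% with Arg1 (53.4%), and 11.5% at 1000 UMIs without (18.7%). Of 57 values for single classes or genes, 10 moved out of the interval; those of Nos2 in endothelial-like cells are given above, and the others are shares of cells with a UMI.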
